A study of Mus musculus with 16 samples.

Results

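The genes described here are 10 genes of the hypoxia-inducible factor (HIF) pathway: Hif1a, Hif3a, Egln1, Egln3, Ankrd37, Adm, Ndrg1, Vegfa, P4ha1 and P4ha2. They were chosen by symbol, and all 10 were found among the 57143 rows of the expression table. RNA was measured by polyA sequencing in the left ventricle of male C57BL/6 mice, in 4 libraries each at 0h, 3h, 24h and 7d after an abdominal operation under sevoflurane, an inhaled anaesthetic. The 0h libraries, which served as the baseline, carry the same surgery label as the later ones, and no group labelled as free of surgery was used here; the age of the mice was not given. Whether the libraries of a time are separate animals is not given, so p-values measure the spread between these libraries, which may be technical.

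HIF is a pair of proteins that switches on genes when oxygen is short. While oxygen is ample, the prolyl hydroxylases encoded by the Egln genes mark the HIF alpha subunits for destruction through the von Hippel-Lindau protein (Vhl). When oxygen falls, the alpha subunit escapes, joins its partner Arnt and binds short DNA elements near its target genes. Much of this control acts on the protein, which was not measured here. Targets in the heart include the vessel growth factor Vegfa, the vasodilator Adm and the hydroxylases that Egln3, P4ha1 and P4ha2 encode, so some targets are also part of the pathway's own feedback.

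Against 0h, 1 of the 10 genes changed at 3h (P4ha1, lower), 3 at 24h (Egln3, P4ha1 and P4ha2, all lower) and 0 at 7d with an adjusted p below 0.05 in edgeR's quasi-likelihood test. At 7d, 1 of the 10 had an unadjusted p below 0.05 and DESeq2 also called 0. The share of all 16866 tested genes called in the same comparisons was 5.04% at 3h, 17.4% at 24h and 0.860% at 7d, and counts this small in a list of 10 do not set the list apart from it. The median log2 fold change of the 10 genes was 0.04, -0.12 and 0.02 at 3h, 24h and 7d, beside 0.00, -0.01 and 0.00 over all tested genes. The 3 comparisons share their 0h libraries. Any change over time was called for 4 of the 10 genes (Hif1a, Egln3, P4ha1 and P4ha2), with 20.2% of all tested genes called.

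Before any fold change, the levels at 0h spanned a wide range. TPM (a share of all transcripts, corrected for gene length and depth) averaged 591 ± 11.7 for Egln1, 249 ± 12.8 for Vegfa and 102 ± 17.8 for Egln3 (mean ± SD, n = 4). P4ha1 (45.3 ± 1.76) and Hif1a (42.5 ± 5.44) did not differ beyond their spread, and neither did Ndrg1 (27.4 ± 3.51), P4ha2 (25.6 ± 1.05) and Adm (21.1 ± 4.44). Ankrd37 stood at 12.9 ± 2.79 TPM and Hif3a at 0.858 ± 0.516 TPM. By its level at 0h, Egln1 exceeded 98.5% of tested genes and Hif3a 8.63%.

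**Figure D1:**
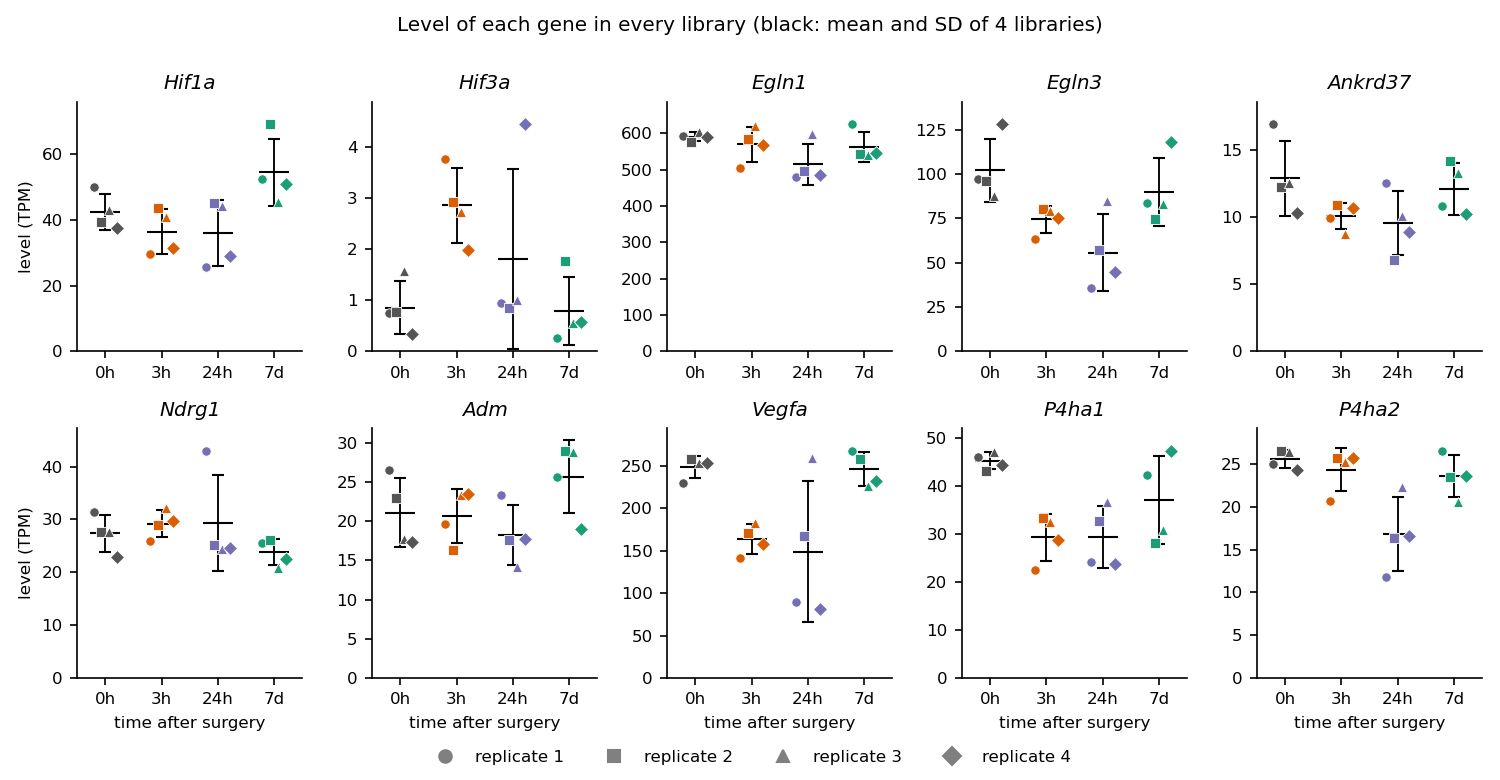
TPM of the 10 genes (vertical axes, each starting at 0) by time after surgery (horizontal axes); each symbol is 1 library, its shape the replicate number, and black bars are the mean and SD of 4 libraries. P4ha1 sits between 22.5 and 33.3 TPM at 3h, below all 0h libraries, and Vegfa at 24h runs from 81.0 to 260.

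Depth ran from 8.31 to 12.9 M counts (M, mega) per library. Over all genes, 850 were called at 3h, 2933 at 24h and 145 at 7d against 0h. At 24h, 52.9% of the calls were higher with TMM scaling, 30.7% with library totals and 18.1% with limma on log2(TPM + 1); the figures at 3h were 36.9%, 24.0% and 16.8%, and at 7d 21.4%, 10.3% and 1.89%. In the same direction, the median of log2(TPM + 1) over tested genes lay 0.15, 0.19 and 0.08 below 0h at 3h, 24h and 7d (differences of -0.15, -0.19 and -0.08), so TPM ratios run below the fitted fold changes. Fold changes also followed gene length: at 24h the median log2 fold change was 0.20 in genes of up to 1735 bases and -0.17 in those of 5988 or more, and at 3h 0.20 and -0.16. The members are 1539 to 6710 bases long. Neutrophil markers summed to 11.1 to 13.2 TPM at 0h and 149 to 571 at 3h, with 6 of 7 tested called higher, and to 68.9 to 331 at 24h, with 5 of 7 called higher. Hepatocyte markers, which a ventricle should lack, summed to 6.96 to 8.5 TPM at 0h and to 121 and 98.9 in 3h replicates 2 and 3, the highest of that group, where replicate 1 was lowest at 6.19, with 5 of 7 tested called higher at 3h. Cardiomyocyte markers (8 genes), which define this tissue, summed to 69400 to 72600 TPM at 0h. The atrial transcript Myl7 reached 146 TPM in 1 of the 3h libraries and 63.8, 126 and 159 TPM in 3 of the 4 at 24h, where a ventricle sample should hold little of it. All other libraries held 9.59 TPM or less. Of 5 tested atrial markers 2 were called higher at 24h, and the 6 summed to 454 to 1470 TPM at 0h and 480 to 1010 at 24h. Nppa held most of these sums, with means of 728 and 634 TPM, and was not called. Mean Myl4 went from 1.94 TPM at 0h to 16.3 at 24h and mean Sln from 0.831 to 18.5. In both, replicate 3 was the lowest 24h library. Fewer cells of a type and less RNA per cell cannot be told apart in these bulk samples.

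The HIF dimer binds DNA elements with the core RCGTG, that is ACGTG or GCGTG. RefSeq promoter windows (GRCm38.p6, 250 bases before to 50 after the start) matched 9 of the 10 genes by symbol, with 2 windows for Vegfa. ACGTG or GCGTG, searched on both strands, was in 9 of these 10 windows (90.0%), beside 43.8% of all 32851 windows. ACGTG alone was in 7 of the 10, beside 19.6% of all. Of the 2 Vegfa windows, chr17:46025114-46025413 held the matches, and 218 of its 250 upstream bases lie in exons of the members. The other, chr17:46032328-46032627, held 0 of either form. In Egln1 70 and in Ankrd37 17 of the 250 bases lie in such exons. The member windows held 54.7% to 86.0% G and C, above the median of 52.7% over all windows. The windows shown are of the 3 genes called lower at 24h than at 0h and of Hif1a, called higher at 7d than at 24h. Within each of these comparisons the fitted changes of the genes shown had the same sign. Each run is the 250 bases before the start, 5′ to 3′ on the gene's strand, with every match on either strand in capitals (CACGT and CACGC are matches on the opposite strand, and CACGTG holds a match on each). They lie at chr12:54203875-54204124 (minus strand), chr10:59323046-59323295 (plus), chr11:54100674-54100923 (plus) and chr12:73907617-73907866 (plus), outside the GENCODE exons of the members.
Egln3: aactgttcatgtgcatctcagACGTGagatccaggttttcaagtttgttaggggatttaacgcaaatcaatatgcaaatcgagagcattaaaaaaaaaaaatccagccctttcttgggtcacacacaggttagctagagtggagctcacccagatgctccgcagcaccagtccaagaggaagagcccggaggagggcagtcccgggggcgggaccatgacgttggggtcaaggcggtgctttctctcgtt
P4ha1: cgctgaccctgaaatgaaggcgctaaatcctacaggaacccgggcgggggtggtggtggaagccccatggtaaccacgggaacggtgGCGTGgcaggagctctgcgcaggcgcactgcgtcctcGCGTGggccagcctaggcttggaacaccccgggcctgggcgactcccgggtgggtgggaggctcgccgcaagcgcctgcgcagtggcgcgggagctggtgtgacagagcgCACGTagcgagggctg
P4ha2: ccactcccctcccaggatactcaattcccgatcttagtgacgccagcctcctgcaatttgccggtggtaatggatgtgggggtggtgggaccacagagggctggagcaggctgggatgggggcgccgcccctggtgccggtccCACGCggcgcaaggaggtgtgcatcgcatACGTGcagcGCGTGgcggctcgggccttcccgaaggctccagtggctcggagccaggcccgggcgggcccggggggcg
Hif1a: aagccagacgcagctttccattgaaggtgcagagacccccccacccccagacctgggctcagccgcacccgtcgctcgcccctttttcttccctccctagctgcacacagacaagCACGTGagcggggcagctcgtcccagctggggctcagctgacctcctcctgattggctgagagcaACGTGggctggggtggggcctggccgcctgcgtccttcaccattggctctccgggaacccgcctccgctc

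In Egln3 the single match lies at positions -229 to -225 from the start. The P4ha1 and P4ha2 windows hold 3 matches each in the part shown, and Hif1a holds 3. A match describes the letters in this window and is not a measured binding site. All 9 members with a window carried the core, so its presence did not differ between members called in some comparison and members not called.

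Of the HIF alpha subunits, Hif1a (chr12:73901375-73947530, plus strand), the subunit that oxygen destabilises, was not called at 3h or 24h and was higher at 7d than at 24h. Its TPM in replicates 1 to 4 was 50.0, 39.5, 42.9 and 37.6 at 0h and 29.7, 43.6, 40.8 and 31.6 at 3h. At 24h the TPM of Hif1a was 25.7, 45.2, 44.2 and 28.9, and at 7d it was 52.5, 69.1, 45.4 and 50.9. The 3h and 24h libraries overlap those of 0h, and the 7d libraries all lie above those of 24h, narrowly for replicate 3 at 7d. Against 24h, Hif1a rose at 7d by a log2 fold change of 0.51 ± 0.14 (SE; edgeR adjusted p 0.0316), with 8.08% of tested genes called in that comparison. This was the 1 member called between 7d and 24h. Against 0h the log2 fold change at 7d was 0.46 ± 0.14, with an adjusted p of 0.124. The 7d rise over 24h lost its call when replicate 1 (adjusted p 0.111) or 4 (0.102) of 24h or replicate 2 of 7d (0.108) was left out, in the fit of those groups alone (0.133), and with limma on log2(TPM + 1) (0.0608) or log2(TPM + 0.1) (0.059). The row overlaps Gm49321 on the same strand and Gm15283 on the opposite one, and their reads cannot be told apart here.

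Hif3a (chr7:17031507-17062427, minus strand), whose product includes forms that oppose the other alpha subunits, had few counts. Its counts were 20, 16, 28 and 7 at 0h, 88, 61, 60 and 43 at 3h, and 26, 18, 23 and 105 at 24h. At 7d they were 6, 52, 15 and 16. In TPM, 0h ran from 0.343 to 1.57 and 3h from 1.98 to 3.78, with no overlap. The log2 fold change at 3h was 1.96 ± 0.67 (edgeR adjusted p 0.107; 95% interval 0.64 to 3.28), which does not pass. In an exact two-sided permutation test on log2(TPM + 1) the p was 0.0286, which no design of 4 against 4 libraries can go below, and 0.179 once adjusted over 50 member comparisons. At 24h the mean of 1.81 ± 1.76 TPM rests on replicate 4 at 4.45, beside 0.848 to 1.01 in the other 3, and the log2 fold change of 1.37 became 0.34 without it. Hif3a is called at 3h in the fit of 3h and 0h alone (adjusted p 7.61e-05) and by DESeq2 (0.0482). The gene overlaps 4833404L02Rik on the opposite strand.

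Among the oxygen sensors, Egln1 (chr8:124908587-124949324, minus strand), the main prolyl hydroxylase of HIF, was not called in any comparison. Its TPM was 593, 577, 605 and 590 at 0h and 505, 585, 621 and 568 at 3h. At 24h it was 480, 496, 599 and 486, and at 7d 625, 542, 540 and 546. All later groups overlap 0h, and the 95% intervals of the log2 fold change were -0.07 to 0.32 at 3h, -0.18 to 0.21 at 24h and -0.17 to 0.22 at 7d.

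Egln3 (chr12:54178981-54203860, minus strand), a hydroxylase that is itself switched on by HIF, fell at 24h. Its TPM was 97.2, 96.2, 87.4 and 128 at 0h and 63.4, 80.2, 78.9 and 75.3 at 3h. At 24h its TPM was 35.6, 57.1, 85.0 and 44.9, and at 7d 83.8, 74.6, 83.1 and 118. All 3h and 24h libraries lie below all 0h libraries, the 24h replicate 3 narrowly, and 7d overlaps 0h. The fit gave a log2 fold change of -0.70 ± 0.18 at 24h (edgeR adjusted p 0.0141). At 3h the 95% interval was -0.64 to 0.07 and the gene was not called. Between 24h and 7d the log2 fold change was 0.59 ± 0.18 (adjusted p 0.0501). The call at 24h is lost without 24h replicate 1 (adjusted p 0.0516) or replicate 4 (0.0575).

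Of the effectors, Vegfa (chr17:46016993-46032369, minus strand), the growth factor that drives vessel sprouting, was lower in every 3h library than in any at 0h. Its TPM was 230, 258, 253 and 254 at 0h, and 142, 171, 183 and 158 at 3h. At 24h the Vegfa TPM was 89.8, 167, 260 and 81.0, and at 7d 268, 258, 226 and 232. The 24h group splits, with replicate 3 at the 0h level and the other 3 below every 0h library. The log2 fold change was -0.43 ± 0.22 at 3h (edgeR adjusted p 0.255) and -0.57 ± 0.22 at 24h (adjusted p 0.0767), so neither passed. In the fit of 3h and 0h alone the adjusted p at 3h was 0.000486. Without 24h replicate 3, the highest of its group, the log2 fold change at 24h was -0.92 (adjusted p 5.51e-05). Calls over all genes at 24h then went from 2933 to 4262. DESeq2 and limma on log2(TPM + 1) called Vegfa lower at 24h with all libraries in, at adjusted p 0.0376 and 0.0236.

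P4ha1 (chr10:59323296-59373304, plus strand), a catalytic subunit of the collagen prolyl 4-hydroxylase that stabilises the collagen helix, was lower at 3h and 24h. Its TPM was 46.1, 43.2, 47.2 and 44.5 at 0h and 22.5, 33.3, 32.6 and 28.8 at 3h. At 24h its TPM was 24.1, 32.7, 36.8 and 23.8, and at 7d 42.3, 28.1, 30.8 and 47.4. The 3h and 24h groups do not overlap 0h, while 7d spreads across both ranges. The log2 fold change was -0.45 ± 0.13 at 3h (edgeR adjusted p 0.0442) and -0.42 ± 0.13 at 24h (adjusted p 0.0267). The call at 3h was lost in all 8 fits that left out 1 of its libraries, at adjusted p from 0.0605 to 0.166, and with 3h replicates 2 and 3, which held the most hepatocyte transcripts, left out together (-0.57, 0.0747). The call at 24h was lost in 5 of 8 such fits. It went without replicate 1 (0.0951) or 4 (0.0873) of 24h, or without 0h replicate 1 (0.0514), 3 (0.0623) or 4 (0.059).

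P4ha2 (chr11:54100095-54131665, plus strand), another catalytic subunit of the same enzyme, was lower at 24h and not called at 3h. Its TPM was 25.1, 26.6, 26.4 and 24.4 at 0h and 20.7, 25.7, 25.3 and 25.7 at 3h. At 24h its TPM was 11.8, 16.4, 22.4 and 16.6, and at 7d 26.6, 23.5, 20.6 and 23.7. All 24h libraries lie below those of 0h, with replicate 3 the nearest, and 3h overlaps 0h. The log2 fold change at 24h was -0.40 ± 0.12 against 0h (edgeR adjusted p 0.0234) and -0.51 ± 0.12 against 3h (adjusted p 0.00987). The fall between 3h and 24h is called in all 8 fits that leave out 1 library of either time, but not with 3h replicates 2 and 3 left out together (0.0968) or with the Myl7 covariate (0.0603). The TPM of these groups overlaps, at 22.4 in 24h replicate 3 and 20.7 in 3h replicate 1. Of all tested genes 7.58% are called in that comparison, against 1 of the 10 members. The call against 0h is lost in the fit of 24h and 0h alone (0.0611) and when the trend with gene length is removed (0.0647). It is also lost without 24h replicate 1 (0.111) or 2 (0.0581), or without 0h replicate 2 (0.0657) or 3 (0.0526). From 24h to 7d the log2 fold change of P4ha2 was 0.38 (adjusted p 0.052).

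**Figure D2:**
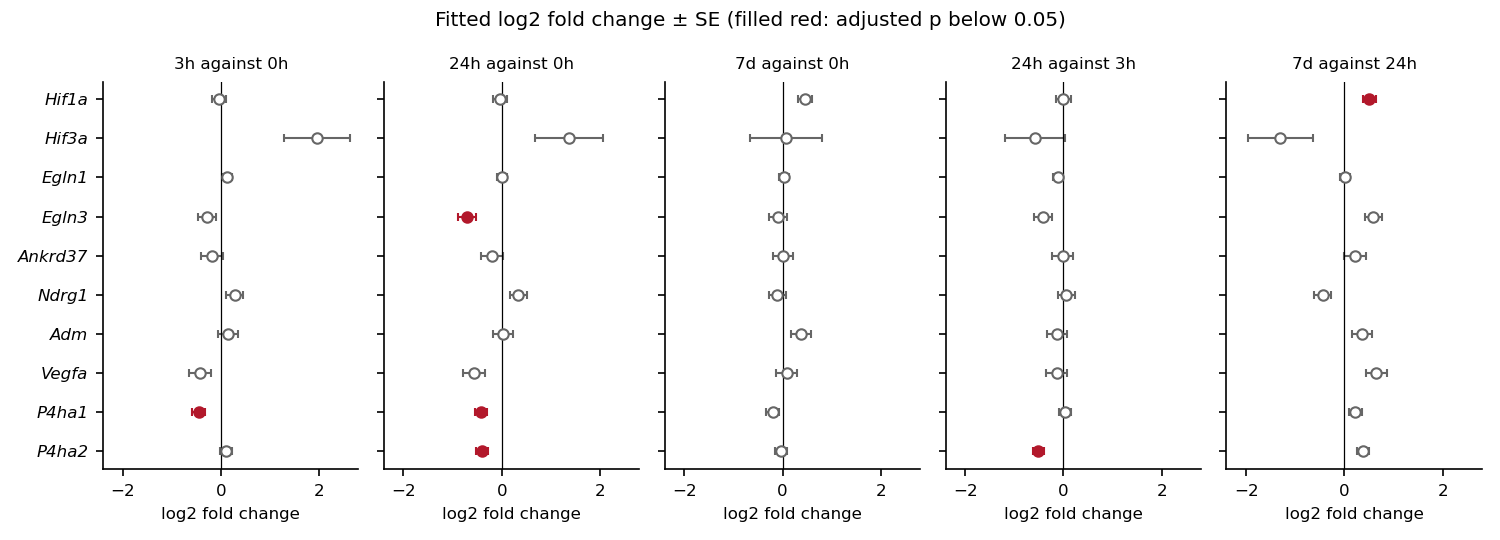
Fitted log2 fold change with SE (horizontal axes) of the 10 genes (rows) in 5 comparisons, 1 panel each; filled red points passed an edgeR adjusted p below 0.05. P4ha1 is filled at 3h, Egln3, P4ha1 and P4ha2 at 24h, P4ha2 for 24h against 3h and Hif1a for 7d against 24h.

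Adm, Ndrg1 and Ankrd37 were not called by edgeR in any comparison of 2 times among the 16866 tested genes. Adm (chr7:110627661-110629820, plus strand), the vasodilator peptide adrenomedullin, ran from 17.3 to 26.5 TPM at 0h, 16.3 to 23.5 at 3h, 14.1 to 23.4 at 24h and 19.0 to 29.0 at 7d. Its 95% intervals of the log2 fold change against 0h were -0.24 to 0.55, -0.37 to 0.41 and 0.00 to 0.76 in that order. Ndrg1 (chr15:66929318-66969640, minus strand), a stress-responsive gene long used as a hypoxia marker, ran from 22.8 to 31.4 TPM at 0h and 25.9 to 32.2 at 3h. At 24h it was 24.4 to 25.2 in 3 libraries and 43.0 in replicate 1, and at 7d 20.8 to 26.1. Its log2 fold change from 24h to 7d was -0.44 ± 0.17 (edgeR adjusted p 0.114). Of 8 fits that left out 1 library of either time, 1 called it, without 24h replicate 3 (-0.56, 0.0272). The others reached -0.15, with adjusted p up to 0.518. At 24h against 0h such fits gave 0.05 to 0.45, and none called it. With no filter on low values, edgeR called Ndrg1 at 24h against 0h (0.0493) and at 7d against 24h (0.0096). Ankrd37 (chr8:45996902-46005707, minus strand), an ankyrin-repeat gene activated by HIF, ran from 10.3 to 16.9 TPM at 0h and 8.74 to 10.9 at 3h, and then from 6.78 to 12.5 at 24h and 10.2 to 14.2 at 7d. All later groups of these 3 genes overlap 0h. Ankrd37 overlaps Ufsp2 and Lrp2bp on the opposite strand, Ndrg1 overlaps Gm17035 and Gm2895, and Adm overlaps Gm28863. With the strand setting of the counting not given, these 3 rows are uncertain.

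From 24h to 7d edgeR called Hif1a alone of the 10 genes, with 8.08% of all tested genes called. Mean TPM was higher at 7d than at 24h for all members except Hif3a and Ndrg1. The median of log2(TPM + 1) over all tested genes was also higher at 7d, by 0.1. For Egln1, at 515 TPM at 24h and 563 at 7d, the fitted log2 fold change was 0.01. The adjusted p was 0.0501 for Egln3, 0.052 for P4ha2 and 0.0771 for Vegfa, whose log2 fold change was 0.65 ± 0.22. DESeq2 called Egln3, P4ha2 and Vegfa as well as Hif1a. Without 24h replicate 3 the edgeR values were 0.000813, 0.00464 and 2.57e-05, and without 7d replicate 2 Egln3 was called at 0.0442. The 24h replicate 3 was the highest 24h library for these genes, and without it calls over all genes went from 1363 to 2408.

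Counting groups that do not overlap in TPM, 4 members stood apart from 0h at 3h, 3 at 24h and 0 at 7d. Across all tested genes 24.0%, 21.2% and 9.98% did so. At 3h these were Hif3a (above) and Egln3, Vegfa and P4ha1 (below), and at 24h Egln3, P4ha1 and P4ha2 (below).

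The 24h libraries did not move as 1 group. Replicate 3 had the highest TPM of the 4 for Egln1, Egln3, Vegfa, P4ha1 and P4ha2, and in it Vegfa was 104%, P4ha2 87.4%, Egln3 83.2% and P4ha1 81.4% of the 0h mean. In replicate 1 the same values were 36.1%, 46.2%, 34.8% and 53.2%. Replicate 3 was also the 24h library with the least Myl7 (6.97 TPM, beside 63.8, 126 and 159) and with the highest summed cardiomyocyte markers (67300 TPM, beside 58700 to 60800). Of these markers Myh6 (9710 TPM), Actc1 (9280), Pln, Tnnt2 and Ryr2 were highest in replicate 3. Myl2 was lowest there (15100 TPM, beside 17400 to 19600), and Myl3 and Tnni3 were not highest. Actc1 was itself called lower at 24h than at 0h (log2 fold change -1.01, edgeR adjusted p 0.00222). At 3h the order by Myl7 differed: replicate 3, with 146 TPM of Myl7, had the highest Vegfa of that group, and replicate 1, with 0.977 TPM, the lowest. With Myl7 as a covariate no member was called in any comparison, and calls over all genes at 24h went from 2933 to 86. The log2 fold changes at 24h under that covariate were -0.40 for Egln3, -0.28 for Vegfa, -0.40 for P4ha1 and -0.32 for P4ha2. Myl7 was itself called higher at 24h than at 0h (log2 fold change 5.48, edgeR adjusted p 0.0341), so the covariate moves with time. The lost calls therefore cannot tell Myl7 and time apart. For P4ha1 the log2 fold change was -0.42 without the covariate, and the edgeR adjusted p went from 0.0267 to 0.336. The part of cell or tissue content in these values was not tested further.

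**Figure D3:**
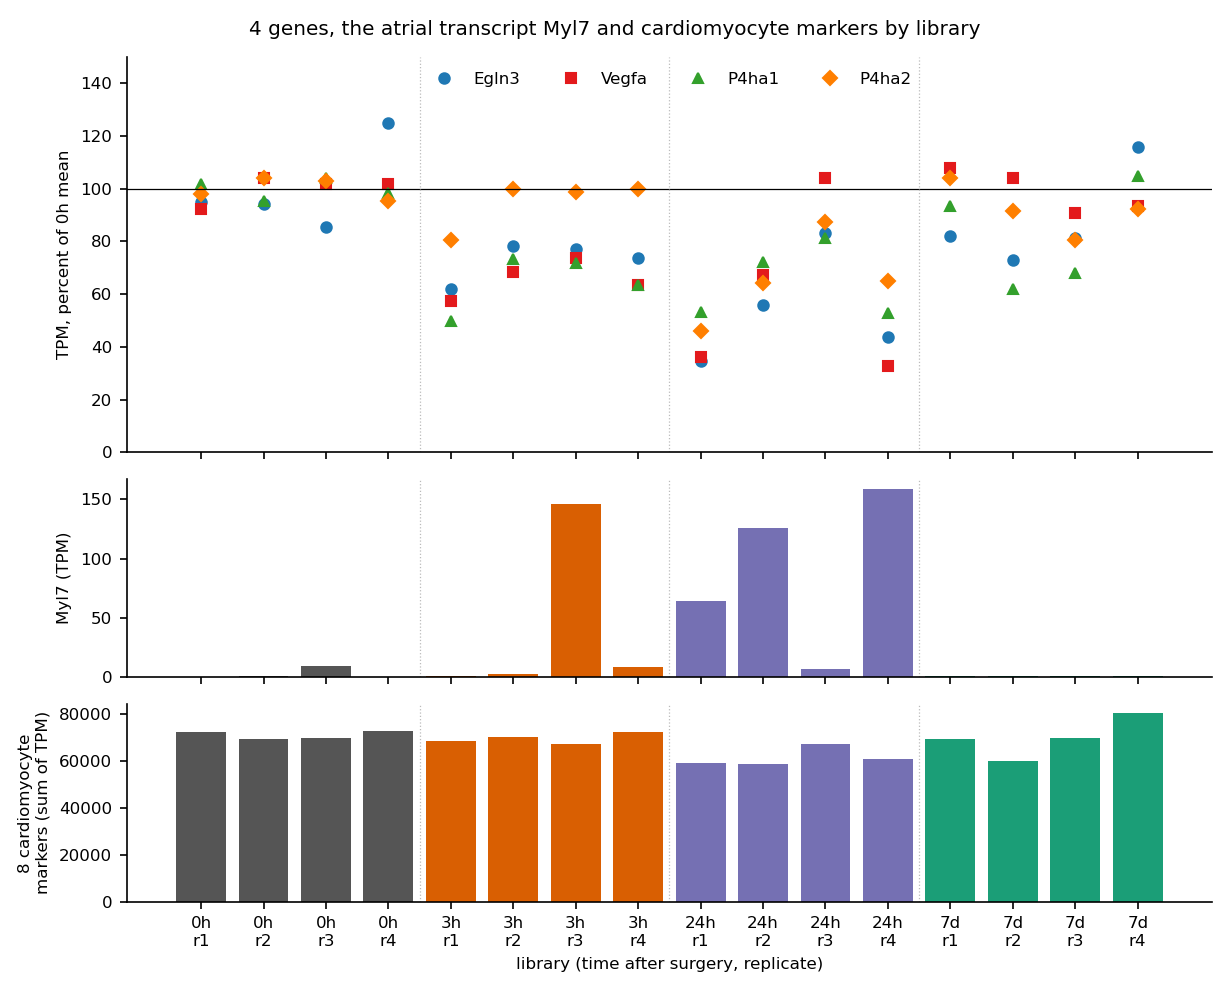
Top, TPM of Egln3, Vegfa, P4ha1 and P4ha2 in each of 16 libraries as a percent of the 0h mean (line at 100); middle, TPM of the atrial transcript Myl7; bottom, summed TPM of 8 cardiomyocyte markers. The 24h replicate 3 lies between 81.4% and 104% for the 4 genes with 6.97 TPM of Myl7, and replicate 1 between 34.8% and 53.2% with 63.8 TPM.

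Several receptors for VEGF proteins were lower after surgery. Of 9 VEGF ligands, receptors and co-receptors other than Vegfa, 5 were lower at 3h, with a median log2 fold change of -0.50 beside 0.00 over all tested genes, of which 5.04% were called in either direction. At 24h 4 of the 9 were lower, with a median of -0.15 beside -0.01 and with 17.4% of all tested genes called. Kdr, the main signalling receptor for Vegfa on endothelium, fell from 73.9 ± 11.6 to 27.5 ± 6.17 TPM at 3h (log2 fold change -1.25, adjusted p 0.0146), and was 33.6 ± 11.5 TPM at 24h (-0.93, adjusted p 0.0239). The co-receptor Nrp1 fell from 43.1 ± 6.54 to 20.0 ± 3.33 TPM at 3h (-0.93, adjusted p 0.017), and Nrp2 from 24.1 ± 3.98 to 11.4 ± 1.31 TPM (-0.89, adjusted p 0.0146). Nrp2 was lower still at 24h, at 8.69 ± 2.16 TPM (-1.27, adjusted p 0.000589). The lymphatic ligand Vegfc fell from 12.1 ± 3.6 to 5.69 ± 1.83 TPM at 3h (-0.91, adjusted p 0.0342), and its receptor Flt4 was called lower at both times. Flt1, the receptor that traps Vegfa, was 43.0 TPM at 0h and 39.4 at 3h and was not called, nor were Vegfb, Vegfd and Pgf.

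Summed endothelial markers ran from 1180 to 1600 TPM at 0h, 1130 to 1260 at 3h and 1120 to 1850 at 24h. The 1 of the 10 called lower at 3h and at 24h was Kdr itself, which is on both lists, while Fabp4 was called higher at 24h (0.57, adjusted p 0.0382). Fabp4 made up much of that sum, with 618 TPM at 0h and 776 at 24h. Over the list, the median log2 fold change at 3h was -0.15. Cldn5 (78.4 to 26.7 TPM, -1.38, adjusted p 0.11) and Cdh5 (141 to 82.9 TPM, -0.58, adjusted p 0.0899) were lower in every 3h library than in any at 0h. So were Tek (-0.40) and Egfl7 (-0.33), while the fitted change was positive for Pecam1, Tie1, Emcn, Esam and Fabp4. None of these other markers was called at 3h. The part of these markers in the VEGF genes' values was not tested. The count of 5 at 3h fell to 0 without 0h replicate 1, without 3h replicate 1, with 3h replicates 2 and 3 left out together, or with Myl7 as a covariate. It was 2 without 3h replicate 4, and 3 without 0h replicate 2, without 3h replicate 2 or 3, or with the length trend removed. At 24h the 4 genes became 2 without 0h replicate 1 and 0 with the Myl7 covariate.

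**Figure D4:**
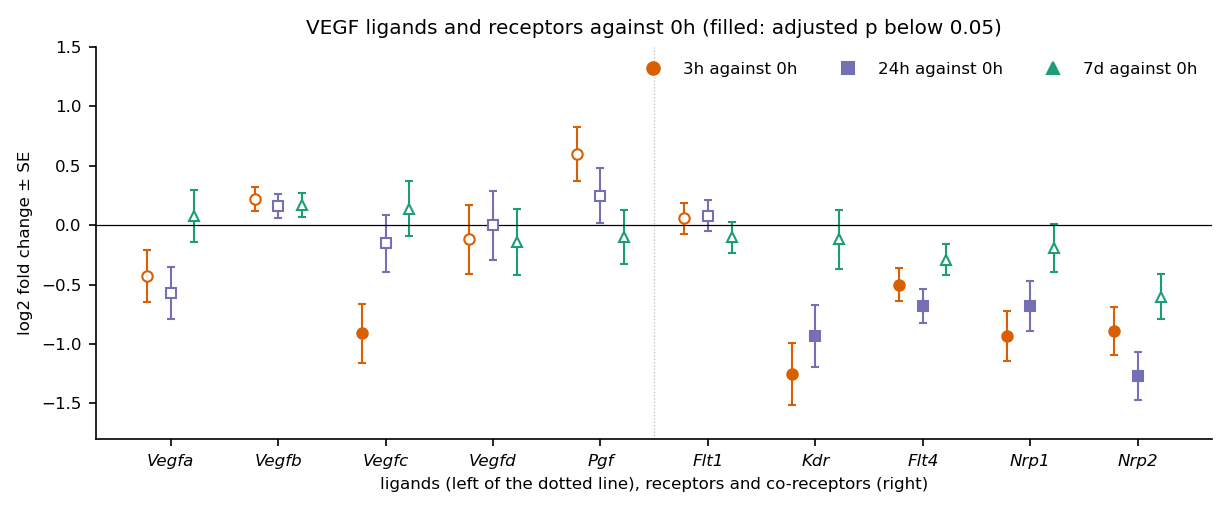
Log2 fold change against 0h with SE (vertical axis) of Vegfa, 4 other VEGF ligands and 5 receptors and co-receptors at 3h, 24h and 7d (colours and shapes); filled symbols passed an edgeR adjusted p below 0.05. Kdr, Flt4, Nrp1 and Nrp2 are filled at 3h and 24h, Vegfc at 3h, and Vegfa at neither.

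Some genes of the machinery that sets HIF levels were called. Of 15 tested genes of the list, 1 was higher and 1 lower at 3h, 4 higher and 1 lower at 24h, and 1 lower at 7d, beside 5.04%, 17.4% and 0.860% of all tested genes called in either direction. Egln2, the third prolyl hydroxylase of HIF, rose from 80.8 ± 5.86 to 97.3 ± 5.08 TPM at 3h (log2 fold change 0.46, adjusted p 0.0224). Ep300, a co-activator that HIF recruits, fell from 13.4 ± 1.73 to 7.94 ± 1.51 TPM at 3h (-0.57, adjusted p 0.0365). At 24h Hif1an, the asparaginyl hydroxylase that blocks HIF's activation domain, fell from 61.8 ± 6.7 to 35.4 ± 12.0 TPM (-0.61, adjusted p 0.00549). The ubiquitin ligase Siah1a, Eloc of the von Hippel-Lindau complex and Egln2 were the other named members called at 24h, with log2 fold changes of 0.56, 0.47 and 0.40 (adjusted p 0.00795, 0.0172 and 0.0207). At 7d the co-activator Crebbp fell from 10.2 ± 1.09 to 6.26 ± 1.09 TPM (-0.61, adjusted p 0.0107). Epas1, Arnt and Vhl were not called at any time. The 4 higher genes at 24h became 0 with limma on log2(TPM + 1) and 2 with library totals, so this direction depends on the scaling. They became 1 without 24h replicate 1 or 4, and 2 without 0h replicate 1, 2 or 3.

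Other HIF targets split in direction. Of 54 tested rows, 2 were higher and 1 lower at 3h, 9 higher and 5 lower at 24h, and 1 higher at 7d, with medians of 0.06, 0.00 and 0.05. The counts at 3h and 7d are near the 5.04% and 0.860% called over all tested genes, and the share at 24h stands beside 17.4%. At 3h Pfkfb3, which speeds glycolysis, rose from 5.01 ± 0.49 to 15.5 ± 2.28 TPM (log2 fold change 1.82, adjusted p 0.00182). The glycogen-targeting subunit Ppp1r3c rose from 208 to 248 TPM and the growth factor Pdgfb fell from 44.0 to 23.1 TPM (log2 fold changes 0.43 and -0.74, adjusted p 0.0365 and 0.0494). The mitophagy gene Bnip3 had 357 ± 79.2 TPM at 0h and 1630 ± 578 at 24h, a rise of 2.45 (adjusted p 0.000895). The Myc antagonist Mxi1 and the glucose transporter Slc2a1 rose as well, by 0.71 and 0.59 (adjusted p 0.0011 and 0.00266), while the adenylate kinase Ak4 fell from 37.1 ± 4.66 to 17.5 ± 6.61 TPM (-0.89, adjusted p 0.00145). At 7d the glycolytic enzyme Eno1 was higher (0.39, adjusted p 0.0425). With library totals the 9 and 5 at 24h became 5 and 9, with limma on log2(TPM + 1) 4 and 15, and with the Myl7 covariate 0 and 0. In the fit of 24h and 0h alone the higher genes were 3, leaving out 24h replicate 1 gave 4, and leaving out 24h replicate 4 or 0h replicate 1 gave 5. The lower genes were 9 without 24h replicate 3. Bnip3, Mxi1 and Slc2a1 rose, and Ak4 fell, in the fits with either scaling and with limma.

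For the partners of Adm, 6 genes were tested. The accessory protein Ramp2 rose at 3h from 48.1 ± 6.97 to 60.1 ± 2.6 TPM (log2 fold change 0.51, adjusted p 0.0353), and the receptor Calcrl fell at 24h (-0.46, adjusted p 0.00953) and 7d (-0.54, adjusted p 0.0282). Of the 15 tested genes of collagen hydroxylation and folding, 1 was higher and 2 lower at 24h, beside the 17.4% called over all tested genes. These were P3h4 (0.34, adjusted p 0.0251) and the collagens Col3a1 (-1.51, adjusted p 0.0346) and Col1a2 (-0.60, adjusted p 0.0352). P4hb, the partner subunit of P4ha1 and P4ha2, was 318 TPM at 0h and 293, 304 and 348 TPM later and was not called. Of 8 markers of fibroblasts, which make most of the heart's collagen, 3 were called lower and 1 higher at 24h, Col3a1 and Col1a2 being on both lists. They summed to 1720 to 3020 TPM at 0h and 1940 to 2250 at 24h, and their part in the P4ha values was not tested. Of the relatives of Ndrg1, Ndrg2 rose from 1310 ± 53.5 to 1780 ± 135 TPM (0.67, adjusted p 0.000708) and Ndrg4 fell from 183 ± 23.9 to 105 ± 35.2 TPM (-0.60, adjusted p 0.0453) at 24h. Among 10 related oxygen-dependent dioxygenases, Egln2 and Hif1an among them, 1 was higher and 1 lower at 3h, and 1 higher and 3 lower at 24h. Over all tested genes 5.04% and 17.4% were called at these times, in either direction. Beyond those already given, Ogfod1 fell at 3h and 24h (-0.44 and -0.38, adjusted p 0.0336 and 0.0333) and the histone demethylase Kdm4c at 24h (-0.48, adjusted p 0.0186).

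Genes whose pattern was most like P4ha2 and Hif1a, the 2 members of smallest p for any change, were ranked by the root mean square difference of log2 CPM from the 0h mean over the 16 libraries. For P4ha2 they included Zfp651, Slc20a2, Def8 and Hdhd2, at 0.11 to 0.12, beside 0.27 for P4ha2 itself. For Hif1a they were Snapc1, Dcun1d4, Slc37a4, Abhd17c and Atp9a, at 0.15 to 0.18, beside 0.30 for Hif1a itself. Snapc1 (chr12:73964481-73988966, plus strand) lies just downstream of Hif1a on the same strand.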

How the data were processed

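RNA of the left ventricle was measured in 16 libraries, 4 per time. The submitters' processing notes name cutadapt, STAR and the build mm10. Tool versions, the counting step and whether it used strand are not given in these sources. The library kit was directional, per the labels' protocols. For 57143 genes the authors deposited counts, TPM, FPKM and gene lengths in 1 table. Counts are whole numbers, not normalized, per the deposited column names. The deposited TPM and FPKM were recomputed from counts and lengths to within a relative 1e-06, and FPKM was not used further. Columns were matched to libraries by the time and number in their names, whose prefix differs from that of the titles.

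The 16866 genes whose mean TPM reached 0.5 were tested in 1 fit of all 16 libraries with edgeR 4.0.16 (TMM, quasi-likelihood F test, robust), with Benjamini-Hochberg adjustment over all tested genes and a threshold of 0.05. All adjusted p-values are from this fit unless another fit or tool is named. All 10 members passed the filter on low values. Coordinates are from GENCODE M21 (GRCm38) and promoter windows from RefSeq (GRCm38.p6). The fit was tested on simulated counts before use. Versions were R 4.3.3, limma 3.58.1, DESeq2 1.42.0, Python 3.11.15 and scipy 1.17.1.

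The members, the gene lists and the rule for named genes were chosen with earlier results of these data known. The rule names all 10 members, up to 4 called genes of smallest p per pathway list and comparison with 0h, and the 5 genes most like each of 2 members; 1 gene that meets it is not reported here. P4hb, Flt1, Vegfb, Vegfd, Pgf, Epas1, Arnt, Vhl and Myl7 are named outside that rule, after their values were seen, as is the mention of Flt4 at 3h. So are the single endothelial, atrial and cardiomyocyte markers other than Kdr. The list of other HIF targets has 56 symbols and 57 rows, since Aldoa has 2 rows. Alternatives were other scalings, filters, tools and pseudocounts (1 and 0.1), a replicate block, Myl7 as a covariate, separate fits for each pair of groups and leaving out libraries. Removing a trend with gene length, and leaving out libraries for ratios of related genes, were chosen after seeing the data.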

Additional observations from a re-analysis of the deposited data

Results flagged for a closer look

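In 40 groups of 4 libraries (10 genes at 4 times), the gap between the highest or lowest library and its nearest neighbour was compared with the whole range of the group. In 5 groups the ratio exceeded Dixon's 95% critical value for 4 samples, and chance gives about 1 in 20 groups. Hif3a stood at 4.45 TPM in 24h replicate 4, beside 0.848 to 1.01 TPM in the other 3 libraries. Egln1 stood at 599 TPM in 24h replicate 3, beside 480 to 496 TPM. Egln1 stood at 625 TPM in 7d replicate 1, beside 540 to 546 TPM. Ndrg1 stood at 43.0 TPM in 24h replicate 1, beside 24.4 to 25.2 TPM. P4ha2 stood at 20.7 TPM in 3h replicate 1, beside 25.3 to 25.7 TPM. These libraries were not the same from gene to gene.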

How the results depend on the processing

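Counts of members called depended on the processing. At 3h against 0h (1 member called) the count was 3 with no filter on low values, 2 with DESeq2, 4 in the fit of the compared groups alone, and 0 with the replicate block, with Myl7 as a covariate or with 3h replicates 2 and 3 left out together. At 24h against 0h (3 called) it was 6 with no filter and 0 with the covariate. There it was 4 with DESeq2, with limma at either pseudocount and with the replicate block, and 2 in the groups alone. At 7d against 0h (0 called) it was 1 with no filter. At 24h against 3h (1 called) it was 2 with no filter, and 0 with the covariate or with those 3h replicates left out. At 7d against 24h (1 called) it was 3 with library totals, 6 with no filter, 2 with filterByExpr, 4 with DESeq2, 3 and 2 with limma on log2(TPM + 1) and log2(TPM + 0.1), 3 with the replicate block, and 0 with the covariate or in the groups alone. Any change over time (4 called) gave 7 with no filter, 6 with DESeq2, 0 with the covariate and 2 without the 3h replicates. Leaving out 1 library gave 0 to 2, 0 to 4, 0 to 0, 1 to 3, 0 to 5 and 2 to 6 in the same order. The cause of these moves was not tested. Removing the length trend left counts of 1, 2, 0, 1, 1 and 3. Replicate numbers did not pair the libraries: same-numbered libraries of different times had deviations correlated from -0.122 to 0.0554, and 0 of 16 correlated best with their own number. With the replicate block, calls over all genes went from 850 to 637 at 3h, 2933 to 2572 at 24h and 145 to 64 at 7d. Of 50 member comparisons, 21 had an unadjusted p below 0.1, and 0 of these changed sign under any alternative; of the other 29, 22 changed sign under at least 1. The share of promoter windows with the core was 43.8% for ACGTG or GCGTG and 19.6% for ACGTG alone. Depth limits Hif3a most, with 71 counts over the 4 libraries at 0h.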

Other observations

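Ratios of related genes within a library do not depend on the scaling between libraries, but the trend with gene length was not removed from them. They were chosen after the values were seen, 15 relations in all, each tested with an exact two-sided permutation test of log2 ratios for which 0.0286 is the smallest p possible with 4 against 4 libraries. At that smallest p, the Benjamini-Hochberg adjusted value was 0.0858, so none of the 15 passed. P4ha2 was 54.5% to 61.6% of the TPM of P4ha1 at 0h, 77.4% to 91.8% at 3h and 49.1% to 69.8% at 24h, a log2 difference of 0.57 between 3h and 0h (higher in 4 of 4 libraries) and of -0.56 between 24h and 3h. Leaving out any 1 library gave 0.52 to 0.61 and -0.66 to -0.49. Egln3 was 14.4% to 21.7% of Egln1 at 0h, 12.5% to 13.7% at 3h and 7.41% to 14.2% at 24h, with log2 differences from 0h of -0.39 and -0.73. Hif3a was 0.911% to 3.67% of Hif1a at 0h and 6.28% to 12.7% at 3h, a log2 difference of 2.13.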
